A study of Mus musculus with 4 samples.

Results

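The genes of the mitochondrial ribosome and of mitochondrial protein import were described by the H3K27ac regions at their starts in regenerating and resting mouse liver. They were taken by name: every gene to which either deposited region list assigned a region and whose symbol begins with Mrpl, Mrps, Timm or Tomm followed by a digit. This gave 35 genes of the 10925 gene names in the lists, made up of 19 Mrpl, 11 Mrps, 3 Timm and 2 Tomm genes. The RefSeq mouse gene table holds 103 protein-coding symbols of that form. The other 68 were assigned no region, and their marking was not determined here. Since a region names a single gene although it can cover several, the lack of an assigned region does not show that they were unmarked.

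Both groups were liver of wild-type C57/BL6J mice. The PHx 12 h group had 70% of the liver removed and was sampled 12 h later, with 2 libraries. The labels do not say whether the libraries of a group came from separate animals. The sham group had a sham operation, also with 2 libraries. The labels give the sham libraries no time after surgery, and the series' design text names 0 h, so hepatectomy, hours since surgery and possibly time of day cannot be told apart. H3K27ac, acetylation of lysine 27 of histone H3, was mapped by CUT&Tag, in which an antibody brings a transposase to the mark to cut and tag the DNA beneath it.

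Mitochondria keep their own ribosomes, which translate the few respiratory chain subunits encoded by mitochondrial DNA. The proteins of these ribosomes are encoded in the nucleus, with Mrpl genes supplying the large subunit and Mrps genes the small one, and they enter the organelle through the TOM complex of the outer membrane and the TIM complexes of the inner membrane. Hepatocytes are rich in mitochondria, and a regenerating liver has to make more of them as its cells grow and divide. H3K27ac flanks the starts of active genes, and such housekeeping genes often have CpG-rich promoters that lie close to those of neighbours on the other strand.

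The lists give each region's position and width and no signal, so neither the depth nor a replicate error is known, and no test across samples could be made. The PHx 12 h list had 10170 regions with a median width of 14551 bp (196.9 Mb in all), and the sham list 11602 regions with a median width of 8153 bp (121.5 Mb), so a gene has to be read against this general widening. Hepatocyte markers with a listed start fitted the tissue: Alb, Apoa1, Ttr and Hnf4a, all 4 of them, had a region there in both groups. Serpina1a and Tat had no listed start. Of the endothelial markers, Pecam1, Cdh5 and Lyve1 had a region at the start after PHx and not in sham, and Stab2 in neither. Of the macrophage markers Csf1r was marked after PHx and not in sham, and Cd68 and C1qa in both groups. The stellate cell marker Colec11 was marked after PHx and not in sham, and the cholangiocyte marker Sox9 in both. Of the same cell types, Clec4f, Reln, Lrat, Des, Krt19 and Epcam had no listed start. Nor had any of the lymphocyte, neutrophil and erythroid markers looked up. The part of these cell types in the results below was not tested. In bulk liver, a shift in cell types and a change within cells cannot be told apart.

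Promoter windows of 6 of the genes are printed here because each stands for one of the patterns described below. Mrpl43 had the largest gain in width and Mrps36 the largest loss. Mrpl17 and Mrps27 had a region after PHx alone, Mrpl9 and Mrps12 in sham alone. The sequences are RefSeq's on GRCm38.p6, from 250 bases before to 50 bases after the start, and are read 5′ to 3′ along the gene. Their coordinates belong to that build and differ from those of the regions, which are on GRCm39. Mrpl43 lies at chr19:45006393-45006692 on the minus strand, Mrps36 at chr13:100744610-100744909 on the minus strand, Mrpl17 at chr7:105811038-105811337 on the minus strand, Mrps27 at chr13:99344536-99344835 on the plus strand, Mrpl9 at chr3:94443086-94443385 on the plus strand and Mrps12 at chr7:28741772-28742071 on the minus strand. Capitals mark letters that match one of 7 motifs searched on both strands: CCGGAAG of the ETS factor GABPA, AAGATGGCG of YY1, CCCGCCC of SP factors, CCAAT of NFY, the E-box CACGTG, TCAAGGTCA of ERR receptors, and for NRF1 the letters GCGC, any base, then TGCGC. None of these motifs holds another one, though neighbouring matches can overlap.
Mrpl43: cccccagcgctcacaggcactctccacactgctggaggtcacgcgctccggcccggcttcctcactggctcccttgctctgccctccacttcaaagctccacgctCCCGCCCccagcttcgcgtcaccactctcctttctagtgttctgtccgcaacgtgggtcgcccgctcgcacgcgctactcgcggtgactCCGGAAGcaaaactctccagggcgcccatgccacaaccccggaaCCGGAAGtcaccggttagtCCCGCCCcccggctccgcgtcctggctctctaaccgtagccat
Mrps36: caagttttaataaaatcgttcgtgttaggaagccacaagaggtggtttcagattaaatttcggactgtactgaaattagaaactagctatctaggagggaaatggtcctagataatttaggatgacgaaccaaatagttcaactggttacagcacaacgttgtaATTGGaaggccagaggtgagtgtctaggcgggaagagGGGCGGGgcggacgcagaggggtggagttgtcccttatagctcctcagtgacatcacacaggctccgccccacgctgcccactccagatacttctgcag
Mrpl17: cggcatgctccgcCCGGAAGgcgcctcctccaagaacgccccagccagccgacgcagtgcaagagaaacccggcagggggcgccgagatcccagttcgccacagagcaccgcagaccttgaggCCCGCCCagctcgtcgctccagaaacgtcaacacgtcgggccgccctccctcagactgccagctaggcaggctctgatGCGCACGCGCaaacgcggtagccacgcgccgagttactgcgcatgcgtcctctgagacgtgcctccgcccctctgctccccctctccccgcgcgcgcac
Mrps27: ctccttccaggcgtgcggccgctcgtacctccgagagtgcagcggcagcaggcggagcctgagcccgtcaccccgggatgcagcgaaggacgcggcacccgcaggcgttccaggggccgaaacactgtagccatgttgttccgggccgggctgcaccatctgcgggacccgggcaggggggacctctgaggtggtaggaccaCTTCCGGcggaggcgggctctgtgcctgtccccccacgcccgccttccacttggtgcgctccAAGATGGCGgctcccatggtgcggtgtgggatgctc
Mrpl9: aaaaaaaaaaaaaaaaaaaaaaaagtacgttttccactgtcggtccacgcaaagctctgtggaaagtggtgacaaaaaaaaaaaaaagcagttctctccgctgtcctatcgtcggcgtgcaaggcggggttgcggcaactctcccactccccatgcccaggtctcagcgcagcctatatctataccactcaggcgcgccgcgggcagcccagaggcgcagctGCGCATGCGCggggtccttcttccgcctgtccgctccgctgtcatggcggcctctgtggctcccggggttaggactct
Mrps12: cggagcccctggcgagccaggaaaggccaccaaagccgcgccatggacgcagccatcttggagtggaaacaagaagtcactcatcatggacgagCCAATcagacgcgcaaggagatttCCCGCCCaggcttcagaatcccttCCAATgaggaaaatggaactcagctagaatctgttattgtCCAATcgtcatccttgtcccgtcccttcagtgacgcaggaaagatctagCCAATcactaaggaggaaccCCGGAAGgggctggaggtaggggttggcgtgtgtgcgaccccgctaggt

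A gene start is called marked where a region of the group touches it or the 1 kb on either side, and the start used was the most upstream one listed for the gene. Of the 35 genes, 6 were marked after PHx only, 8 in sham only, 16 in both groups and 5 in neither. Over all 10925 gene names the shares were 17.8% after PHx only, 8.19% in sham only, 59.1% in both and 14.9% in neither, and over the 7090 protein-coding ones 15.4%, 9.79%, 66.0% and 8.79% in the same order. The share marked after PHx only, 17.1% of the genes, was thus near that of all genes. In sham only it was 22.9%, against 8.19% of all genes and 9.79% of protein-coding genes. No test of this difference was made, and with 35 genes it rests on 8.

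**Figure D1:**
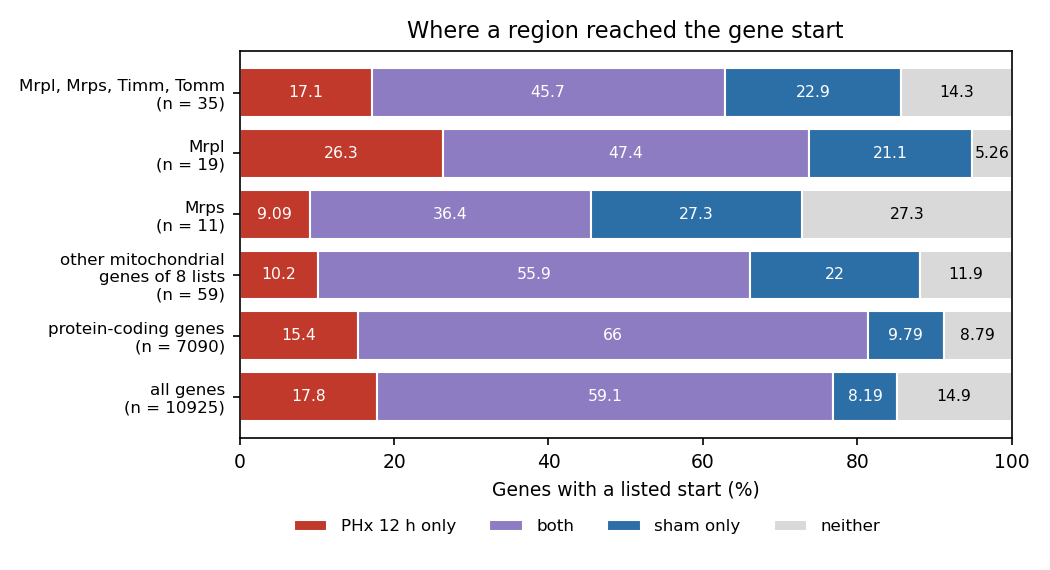
Shares of genes (horizontal axis, %) whose start was reached by a region in PHx 12 h only, in both groups, in sham only or in neither, for the 35 genes, their Mrpl and Mrps subsets, other mitochondrial genes, protein-coding genes and all genes. The sham-only part is 22.9% of the 35 genes and 22.0% of the 59 other mitochondrial genes, against 9.79% of protein-coding genes.

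Among the 16 genes marked in both groups, 13 had a wider region after PHx (81.2%, against 91.5% of the 6459 genes and 91.4% of the 4682 protein-coding genes marked in both groups over the whole lists). The median width was 11690 bp after PHx and 7171 bp in sham, where all genes marked in both groups had 18002 bp after PHx and 9071 bp in sham. The median ratio of PHx 12 h to sham width was 1.55 (quartiles 1.18 and 1.97) for the 16 genes and 1.74 (quartiles 1.24 and 2.81) for all genes. A ratio of 1.5 or more was reached by 9 of the 16 genes, 56.2% against 60.2% of all and 59.6% of protein-coding genes. A ratio of 2 or more was reached by 4 of the 16, against 41.3% of all and 40.0% of protein-coding genes. Widening was therefore common among these genes and not above that of the lists as a whole.

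**Figure D2:**
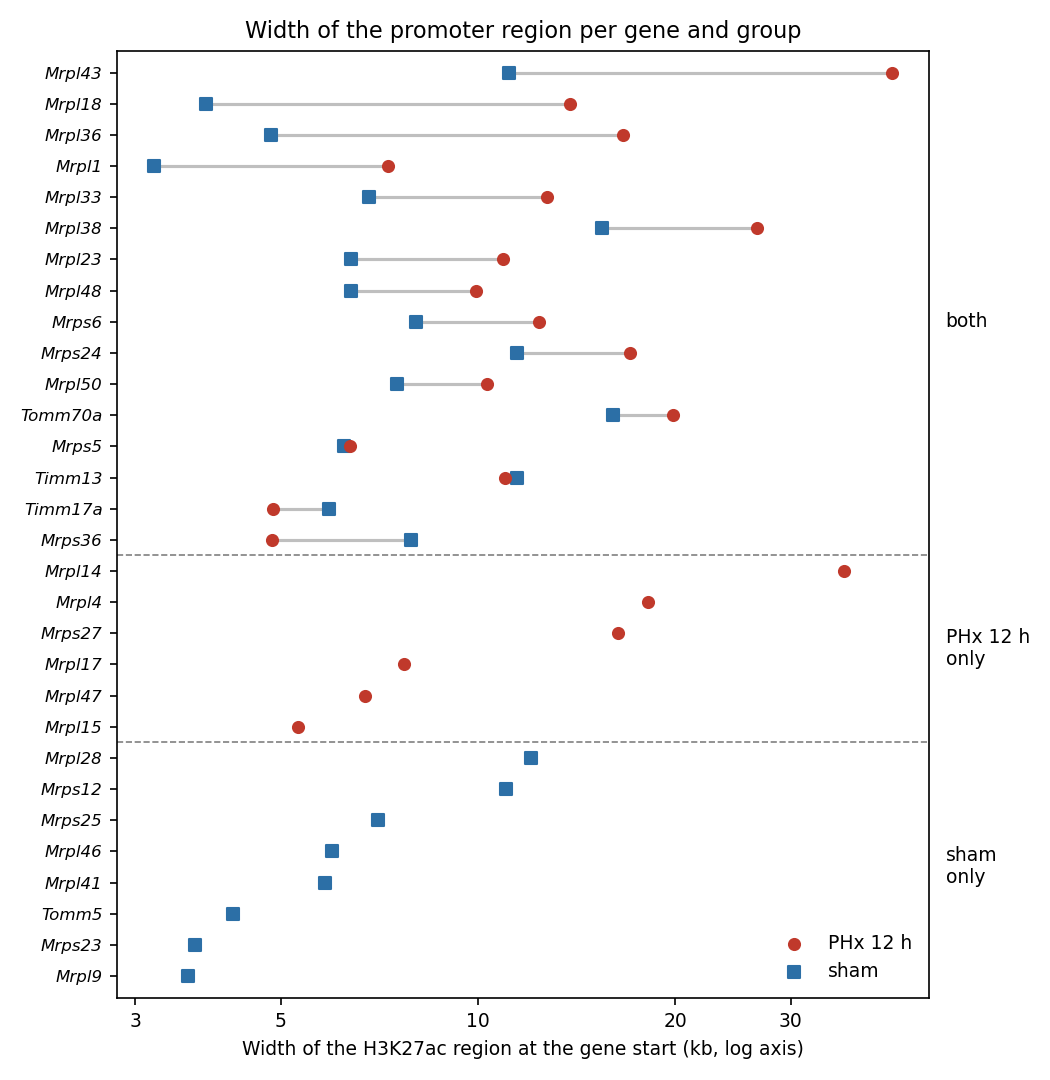
Width of the region at the gene start (horizontal log axis, kb) for the 30 genes marked in at least 1 group, with a red circle for PHx 12 h and a blue square for sham; each point is 1 region of a merged list. In the upper block the circles lie right of the squares except at Timm13, Timm17a and Mrps36, and the sham-only genes of the lowest block have regions of 3603 to 12049 bp.

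The large subunit genes marked in both groups all had the wider region after PHx, as did 91.5% of all genes marked in both. There were 9 of them, with a median ratio of 1.87, against 1.74 for all genes, and a range of 1.37 to 3.84. The largest ratio was that of Mrpl43, which encodes a large subunit protein without a bacterial counterpart: its region on chromosome 19 measured 42876 bp after PHx (44967818 to 45010693) and 11153 bp in sham (44986319 to 44997471). The PHx region at Mrpl43, which the authors assigned to 4930414N06Rik, overlapped 3 sham regions, of 17306 bp at 4930414N06Rik, 11153 bp at Mrpl43 itself and 12728 bp at Lzts2, which together covered 94.3% of it. The ratio at Mrpl43 thus came with the joining of neighbours, and little of that stretch lay outside the sham regions.

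Mrpl18, Mrpl36 and Mrpl1 followed, and each of their PHx regions overlapped a single sham region. Mrpl18, on chromosome 17, had 13826 bp after PHx and 3838 bp in sham, a ratio of 3.60, and the PHx region was assigned to LOC115488839. Most of the gain at Mrpl18 lay upstream, where the region reached 9963 bp from the start after PHx and 1134 bp in sham, over the side on which RefSeq places Tcp1, a chaperonin gene read in the other direction. Mrpl36, whose short protein is known from bacterial ribosomes as well, had 16649 bp after PHx and 4825 bp in sham, a ratio of 3.45. That sham region was assigned to Ndufs6, a gene of respiratory complex I, and ended 885 bp before the Mrpl36 start, so it counted only through the 1 kb window. Mrpl1, whose bacterial relative forms a mobile stalk of the ribosome, had 7287 bp after PHx and 3203 bp in sham, a ratio of 2.28. A second region assigned to Mrpl1 lay inside the gene and measured 10669 bp after PHx and 6509 bp in sham.

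The other large subunit genes had ratios between 1.37 and 1.87. Mrpl33 had 12734 bp after PHx and 6826 bp in sham, and Mrpl38, a mitochondria-specific subunit, 26632 bp after PHx and 15471 bp in sham. Mrpl23, whose relatives sit at the ribosome's exit tunnel, had 10922 bp after PHx and 6405 bp in sham. Mrpl48 had 9914 bp after PHx and 6388 bp in sham at its upstream start. A downstream start of Mrpl48 was reached by a region of 7452 bp in sham and by none after PHx, so its starts differed. Mrpl50 had the smallest ratio of the large subunit genes, 1.37, with 10323 bp after PHx and 7516 bp in sham.

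The small subunit genes marked in both groups were 4, and their median ratio was 1.26, against 1.74 for all genes. Mrps6 had 12384 bp after PHx and 8027 bp in sham, a ratio of 1.54. Mrps24 had 17052 bp after PHx and 11452 bp in sham, a ratio of 1.49. Mrps5 had nearly equal widths, with 6383 bp after PHx and 6235 bp in sham. Mrps36 was the clearest exception to the widening: its region on chromosome 13 measured 4853 bp after PHx (100878823 to 100883675) and 7899 bp in sham (100877032 to 100884930), a ratio of 0.614. The PHx region of Mrps36 lay wholly within the sham region, and only 0.975% of all genes marked in both groups had a smaller ratio. Despite its name, the Mrps36 protein is now known as a component of the oxoglutarate dehydrogenase complex of the citric acid cycle.

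Of the import genes, 3 were marked in both groups, and 2 of these had the narrower region after PHx. Timm17a, a core subunit of the inner membrane channel for proteins with a presequence, had 4872 bp after PHx and 5933 bp in sham, a ratio of 0.821. The PHx region of Timm17a also lay wholly within the sham region. Timm13, one of the small chaperones that escort hydrophobic proteins through the intermembrane space, had 10995 bp after PHx and 11477 bp in sham, a ratio of 0.958. It reached less far upstream after PHx (3235 bp, against 4943 bp in sham) and farther into the gene (7759 bp, against 6533 bp in sham). Tomm70a, the outer membrane receptor for carrier proteins, had 19843 bp after PHx and 16068 bp in sham, a ratio of 1.23. Over all genes marked in both groups, 8.55% were narrower after PHx (8.63% of protein-coding genes), against 3 of the 16 genes described here.

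**Figure D3:**
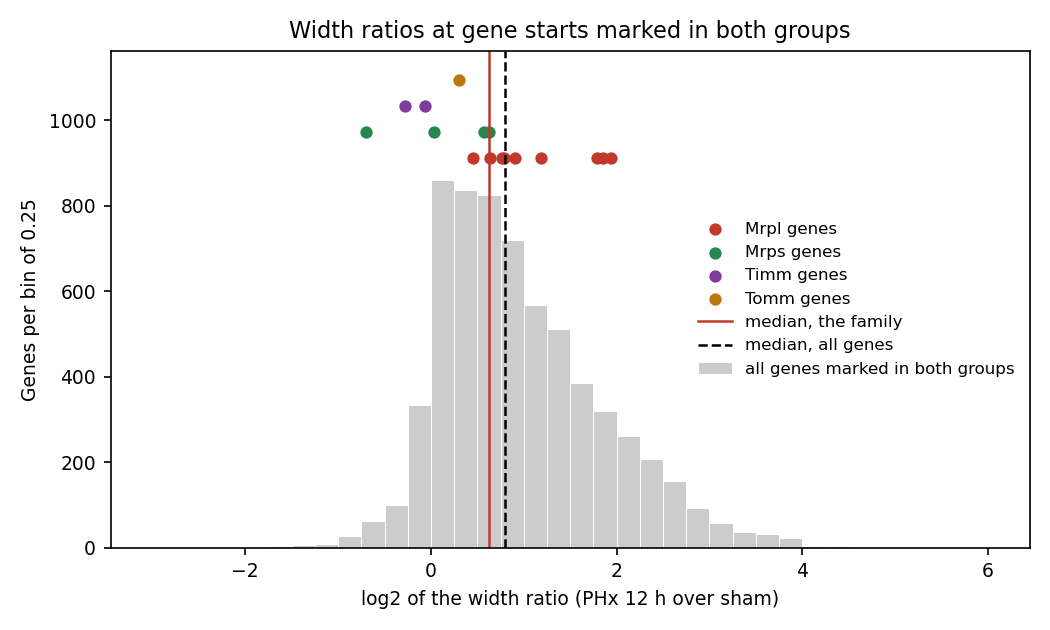
Histogram of the log2 width ratio, PHx 12 h over sham (horizontal axis), of all 6459 genes marked in both groups (vertical axis, genes per bin), with the 16 genes as dots by family and lines at the medians. The Mrpl dots all lie right of 0, the Timm dots left of it, and the median ratio of 1.55 lies left of the 1.74 of all genes.

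A gain on both sides of the start was found in 11 of the 16 genes, 68.8% against 68.6% of all genes. A loss on both sides was found in 2, Timm17a and Mrps36, 12.5% against 2.21% of all and 2.11% of protein-coding genes. After PHx the region reached farther upstream in 13 of the 16 genes (81.2%, against 81.5% of all genes) and farther downstream in 12 of the 16 (against 84.6% of all genes). The median gain was 2278 bp upstream and 1177 bp downstream for the 16 genes, where all genes had 1783 and 2579 bp. A gain upstream that was larger than the one downstream was found in 9 of the 16 genes, 56.2% against 43.0% of all and 40.2% of protein-coding genes. At Mrpl38 the region reached 9977 bp upstream after PHx and 1766 bp in sham, while its downstream reach was 16654 bp after PHx and 13704 bp in sham. At Mrps24 the upstream reach was 12198 bp after PHx and 6868 bp in sham, and the downstream reach 4853 bp after PHx and 4583 bp in sham. At Mrps6 the order was the other one, with 3184 bp upstream after PHx and 2428 bp in sham, and 9199 bp downstream after PHx and 5598 bp in sham.

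**Figure D4:**
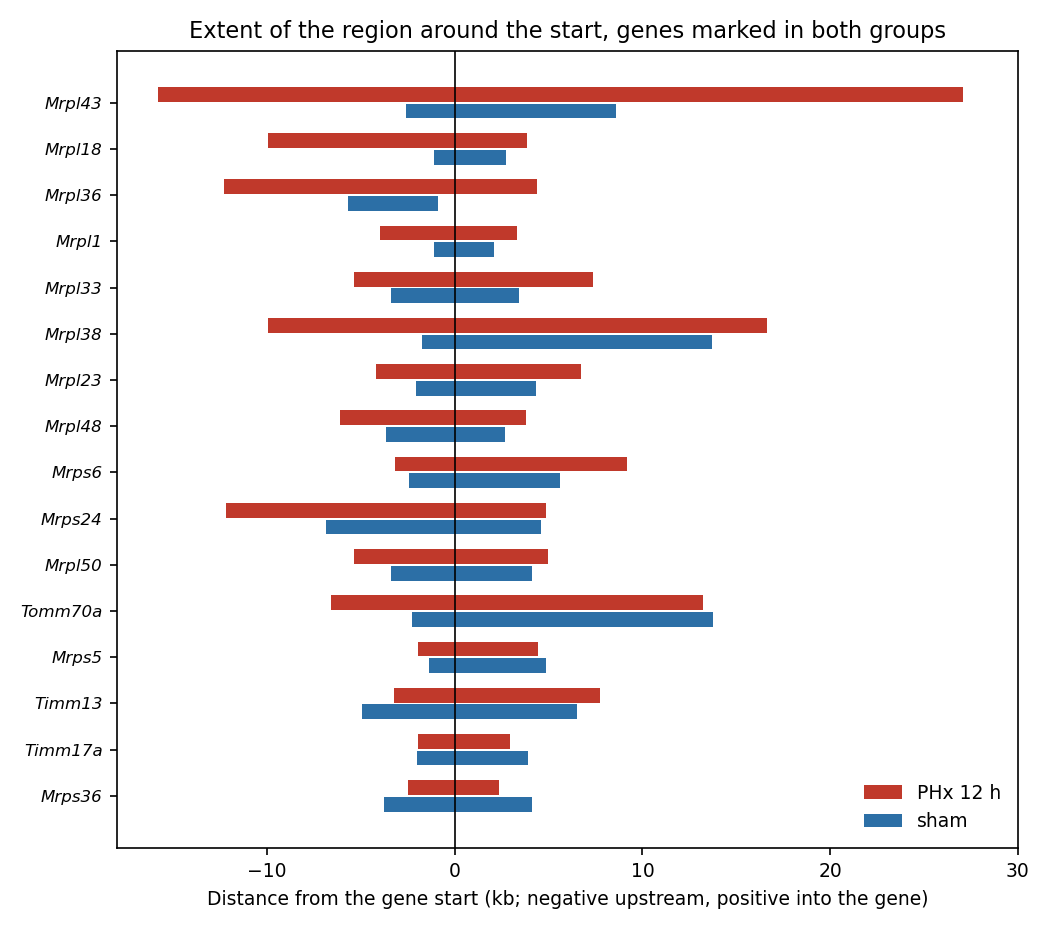
Reach of the region around the start (horizontal axis, kb; negative is upstream) of the 16 genes marked in both groups, with the PHx 12 h bar in red above the sham bar in blue. At Mrpl43 and Mrpl38 the red bars extend well beyond the blue ones upstream, and at Timm17a and Mrps36 they lie within them.

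The genes marked in sham only came from both ribosomal subunits and from the outer membrane. Mrpl28 had the widest of these regions, 12049 bp on chromosome 17 (26337813 to 26349861), and the nearest PHx region lay 27321 bp away. Mrps12, a protein of the decoding centre in its bacterial relatives, had 11023 bp on chromosome 7 (28431189 to 28442211), and the nearest PHx region was 22837 bp away. Mrps25 had 7031 bp, Mrpl46 5977 bp and Mrpl41, a large subunit protein specific to mitochondria, 5843 bp. Tomm5, a small subunit of the outer membrane pore, had 4222 bp, Mrps23 3698 bp and Mrpl9 3603 bp. For all 8 genes the nearest PHx region lay at least 22837 bp and at most 115608 bp from the start, so none missed the window narrowly.

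Narrow sham regions were matched less often over the lists as a whole. Of the genes with a sham region under 5 kb, 3 of 6 in the family and 29.5% of all genes were not marked after PHx. Between 5 and 10 kb these were 3 of 11 in the family and 13.2% of all genes, and from 10 kb upward 2 of 7 and 4.77%. Peak numbers run in genomic order within each library, so numbers missing between neighbouring regions can stand for peaks of that library that are in no listed region. In the stretches around these 8 genes both PHx libraries had such missing numbers in 6 cases, and library 2 alone at Mrpl41 and Tomm5. For all sham-only genes both PHx libraries had them in 20.7%. These stretches span 126766 to 3034196 bp, so a missing number cannot be placed at the promoter, and it may also stand for a region not analysed here. Absence from the PHx list therefore does not show that acetylation was absent in both PHx libraries.

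The genes marked after PHx only were Mrpl14, Mrpl4, Mrps27, Mrpl17, Mrpl47 and Mrpl15, and the first 2 of these depended on the start. The most upstream start of Mrpl14 and of Mrpl4 comes from a predicted RefSeq transcript listed in the PHx table, and the curated start listed in the sham table was marked in both groups. At its curated start, Mrpl14, whose relatives lie at the contact between the subunits, had 36232 bp after PHx and 14685 bp in sham, a ratio of 2.47. At its curated start, Mrpl4 had 18167 bp after PHx and 4574 bp in sham, a ratio of 3.97. With any listed start, 4 genes were left as marked after PHx only, 11.4% against 16.9% of all genes, and 18 as marked in both groups, 51.4% against 60.8%.

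The other 4 had no sham region at any listed start. Mrps27, a small subunit protein that binds RNA, had a PHx region of 16350 bp on chromosome 13 (99475682 to 99492031). A sham region of 4112 bp lay within it and began 6631 bp downstream of the start, in an intron of the gene. Mrpl17 had 7703 bp after PHx, Mrpl47 6726 bp and Mrpl15 5311 bp, and no sham region overlapped these. The nearest sham regions were 54870 bp from the start of Mrpl17, 222801 bp from that of Mrpl47 and 19643 bp from that of Mrpl15. Both sham libraries had missing peak numbers in the stretches around all 4 genes, which span 392094 to 4875591 bp. Over the 6 genes marked after PHx only this held for 5, against 39.9% of all such genes and 44.7% of the protein-coding ones.

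In 5 genes no region reached the start in either group, and they were listed through a region elsewhere. For Mrpl27 that region lay at the end of the gene, 4298 bp from the start after PHx (11021 bp wide) and 6095 bp in sham (8416 bp wide). For Mrps10 it lay in an intron of Trerf1, with 16061 bp after PHx and 13030 bp in sham, and its assignment rests on distance alone. Timm8a2, a paralogue of the chaperone gene Timm8a1, was named by an intergenic region of 24118 bp after PHx and 12560 bp in sham. Mrps33 was named by an intergenic region of 5794 bp after PHx with no sham counterpart. Mrps18a was named by a sham region of 6081 bp over the end of the gene, with no PHx counterpart.

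Other nuclear genes of mitochondrial translation, import and upkeep were collected in 8 lists of 128 genes, of which 59 had a listed start. Of these 59, 6 were marked after PHx only (10.2%, against 17.8% of all genes) and 13 in sham only (22.0%, against 8.19%). Another 33 were in both (55.9%, against 59.1%) and 7 in neither (11.9%, against 14.9%). The median ratio of the 33 was 1.66, against 1.74 for all genes, and 32 were wider after PHx (97.0%, against 91.5%). No test of these shares was made, and the single lists hold few genes. Among 8 translation factors 4 were marked in sham only: the initiation factors Mtif2 (6118 bp) and Mtif3 (6236 bp), the release factor Mtrf1l (4883 bp) and Taco1 (4265 bp), a translational activator of cytochrome oxidase. The elongation factor Gfm1 was marked after PHx only (8215 bp), and the recycling factor Mrrf had 16986 bp after PHx and 6138 bp in sham. C1qbp had the larger ratio of the 2 in both groups, with 21496 bp after PHx and 5093 bp in sham.

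Of 10 ribosome assembly genes 3 were marked in sham only, the helicase Dhx30 (5827 bp), the GTPase Mtg2 (6688 bp) and Noa1 (4242 bp). Mterf3, needed to assemble the large subunit, was marked after PHx only (5178 bp), and 5 genes were marked in both with a median ratio of 2.84. The ratios ran from 2.29 at Mtg1 (11085 bp after PHx, 4842 bp in sham) to 5.79 at Rpusd3 (17745 bp after PHx, 3065 bp in sham). Aurkaip1, a small subunit protein outside the Mrps names and the single gene of its list with a start, had 47459 bp after PHx and 4398 bp in sham. Of 10 genes for charging mitochondrial tRNAs, Yars2 (4993 bp) and Gatc (5780 bp) were marked in sham only and Mars2 (7893 bp) after PHx only. The 6 in both (60.0%, against 59.1% of all genes) had a median ratio of 1.23, against 1.74 for all genes. Their ratios ran from 0.944 at Vars2 (7166 bp after PHx, 7590 bp in sham) to 2.01 at Fars2 (7598 bp after PHx, 3785 bp in sham).

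The 15 import and processing genes outside the Timm and Tomm names were mostly shared. Of these, 9 were marked in both (60.0%, against 59.1% of all genes), each wider after PHx, as were 91.5% of all genes marked in both. Their median ratio was 1.52, against 1.74 for all genes, and none reached 2, against 41.3% of all genes. Their ratios ran from 1.12 at Chchd4 (25658 bp after PHx, 22972 bp in sham), the receptor of disulfide-dependent import, to 1.87 at Chchd3 (9557 bp after PHx, 5118 bp in sham). Oxa1l (5212 bp), the inner membrane insertase, and Immt (6111 bp), which shapes the cristae, were in sham only, and Dnajc15 (8224 bp) and Cox18 (7541 bp) after PHx only. Of 3 protease genes, Clpp (5994 bp) and Afg3l2 (4492 bp) were in sham only, a marking found for 8.19% of all genes. Clpx was in both with 38913 bp after PHx and 22967 bp in sham.

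For the upkeep of mitochondrial DNA, 3 of 5 genes were in both groups (60.0%, against 59.1% of all genes). Tefm, a transcription elongation factor, had 58429 bp after PHx and 9728 bp in sham, and Polg2 had 5688 bp after PHx and 3701 bp in sham. Tfam, which packages mitochondrial DNA and takes part in its transcription, had 8521 bp after PHx and 2768 bp in sham. Polg, the catalytic subunit of the mitochondrial DNA polymerase, was marked after PHx only (12747 bp). Of 7 regulators of mitochondrial biogenesis 6 were in both (85.7%, against 59.1% of all genes), and none was in 1 group only. The median ratio of the 6 was 1.60, against 1.74 for all genes. Nuclear respiratory factor Nrf1 itself had 8481 bp after PHx and 6691 bp in sham, and Atf4 had the smallest ratio, 1.14, with 22815 bp after PHx and 19965 bp in sham. The largest was at Atf5, a factor of the mitochondrial stress response, with 109700 bp after PHx and 17440 bp in sham. For the genes of these other lists, the sham regions that each PHx region overlapped were not counted. Whether their ratios came with the joining of neighbours, as at Mrpl43, was not tested.

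RefSeq promoter windows were found for 32 of the 35 genes and for 59 of the 68 family genes without a listed start, and motif letters were counted in them. A gene can have several windows, 35 in all for the 32 genes and 64 for the 59. It was counted where any of its windows matched. No single motif was found in more than 14 of the 32 genes, and no test of the shares was made. The ETS letters CCGGAAG occurred in 13 of the 32 (40.6%) and in 37.3% of the 59 family genes without a listed start that had a window, against 12.9% of 17492 protein-coding genes and 9.93% of all 27025 genes in the table. They are seen in the windows of Mrpl43, Mrpl17 and Mrps12 printed above, and as the reverse complement in that of Mrps27. The YY1 letters occurred in 4 of 32 (12.5%), among them Mrps27, and in 8.47% of the family genes without a listed start, against 2.14% of protein-coding and 1.64% of all genes. NRF1 letters were found in 3, Mrpl14, Mrpl17 and Mrpl9 (9.38%), and in 20.3% of the family genes without a listed start, against 7.17% of protein-coding and 5.19% of all genes.

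SP letters were in 14 of the 32 genes (43.8%, against 36.9% of protein-coding and 27.9% of all genes). NFY letters were in 12 (37.5%, against 42.3% and 41.1%), and the family genes without a listed start had 37.3% for each of these motifs. An E-box was in 1, Mrpl36 (3.12%, against 8.91% and 8.09%), while 15.3% of the family genes without a listed start had one. ERR letters were in 0 (against 0.377% and 0.466%), and in 1.69% of the family genes without a listed start. Mrps12 carried 4 NFY matches, the most of the 32 genes. By marking, the ETS letters were in 2 of 4 genes marked after PHx only and 2 of 8 of those in sham only. They were in 5 of 15 genes marked in both groups and in 4 of 5 in neither, counts too small to set an order. The windows were not matched to the starts that set the marking. Mrpl14 counted as marked after PHx only, although its curated start was marked in both groups. At Mrpl48, counted as marked in both, only the most downstream window held the letters. The 35 windows of the 32 genes had a median of 21 CpG and 58.7% G or C, where all protein-coding windows had 13 and 56.3%.

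Some of the genes stood back to back with a neighbour. A start on the opposite strand within 1 kb was found for 12 of the 32 genes (37.5%), against 32.2% of the family genes without a listed start and 9.61% of protein-coding genes. Mrpl46 and Mrps11, of the large and the small subunit, had starts 42 bases apart, Mrps12 and Sars2, the mitochondrial seryl-tRNA synthetase, 147 bases apart, and Mrpl43 and Twnk, the mitochondrial DNA helicase, 116 bases apart. Mrpl47 faced Ndufb5 of respiratory complex I at 308 bases and Mrps27 faced Ptcd2 at 108 bases. None of the 12 neighbours had a start listed in the tables, so a region at such a shared promoter was credited to the Mrpl or Mrps gene or to another gene nearby, and which of the pair it marks cannot be told apart.

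**Figure D5:**
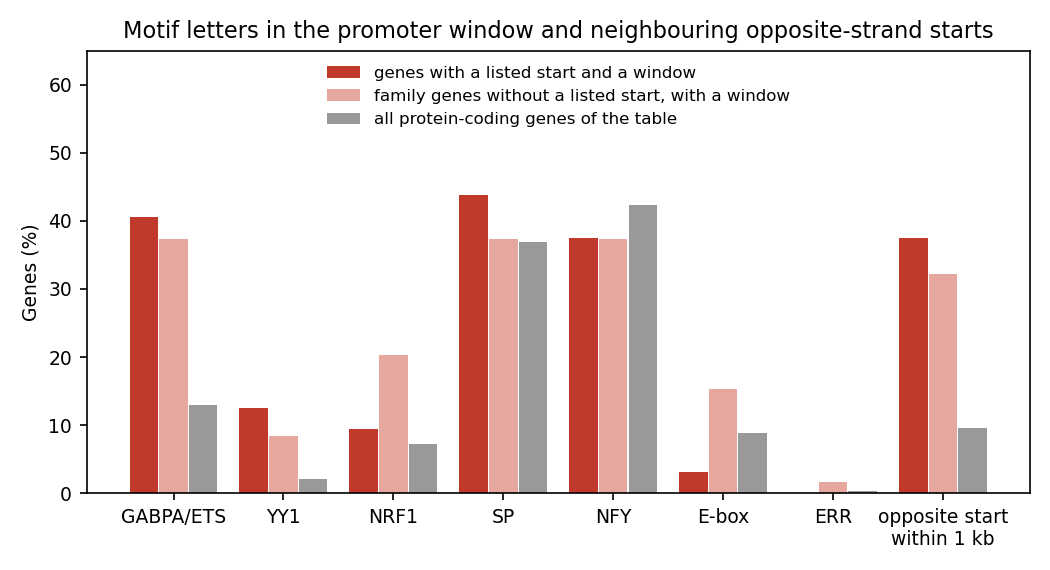
Share of genes (vertical axis, %) whose RefSeq promoter window holds the letters of each motif, or that have an opposite-strand start within 1 kb, for the 32 of 35 genes with a listed start (red) and the 59 of 68 family genes without one (pink) for which a window was found, and for all protein-coding genes with a window (grey). The red bar for GABPA/ETS stands at 40.6% and that for the opposite start at 37.5%, against grey bars of 12.9% and 9.61%.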

How the data were processed

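H3K27ac CUT&Tag libraries of mouse liver were made from flash-frozen tissue, per the labels' protocols. Bowtie2, SEACR, ChIPseeker, DiffBind and the build GRCm39 (mm39) are named in the submitters' processing notes, without versions, roles or thresholds. The authors deposited 1 list per group of regions joined from the peaks of both libraries, with positions, widths and distances in bp, and no signal or count, so the depth is unknown and no p-value is given.

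With Python 3.11.15 and pandas 2.3.3, a region was tied to a gene when it overlapped the most upstream listed start or the 1 kb on either side, the widest where several did. Ratios are PHx 12 h over sham. The functions were tested on simulated lists. RefSeq GRCm38.p6 gave biotypes and promoter windows; its coordinates were not compared with those of the regions. Missing peak numbers were counted between the regions that flank a start. Named in full were all genes marked in 1 group or in neither and the extremes of ratio and width; in other lists, up to 4 genes of 1 group only and the extreme ratios. Tfam, Nrf1 and the cell type markers fall outside that rule, and Tfam and Nrf1 were picked after their values were seen. The genes and lists were chosen with earlier results of these data known. Alternatives covered the window, the start, the gene assignment, narrow regions, joined regions and overlap; 2 of them, and their use on the count in neither group, were chosen after seeing the data. No value per library was given, so the replicates could not be compared.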

Additional observations from a re-analysis of the deposited data

How the results depend on the processing

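The numbers of genes in neither group, in both, in sham alone and after PHx alone, the number wider after PHx and the median ratio stayed within 1.5 times of the values given, and the ratio above 1, in the alternatives tried, with these exceptions. Where the stretch around the start had to hold no missing peak number of the other group, 1 gene was left after PHx only (Mrpl4, at its predicted start) and 0 in sham only. With the narrowest 25% of the regions of each list left out, 9 genes were in both groups, 8 of them wider after PHx, and 13 in neither; this removes the narrow regions by its construction. By the authors' own gene assignment with any annotation 0 genes were in neither, since that alternative counts every assigned region. Divided by the median ratio over all genes, the median ratio was 0.890, below 1. Over the alternatives, the genes in sham only otherwise numbered 8 to 11 and those after PHx only 4 to 7, the highest sham count coming with the authors' own gene assignment.

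Leaving out a library was not run, since the lists hold no value per library. No paired analysis was possible because the replicate numbers have no columns of their own. The missing signal and depth limit the results to presence, position and width of regions.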
